A study of Oryza sativa with 12 samples.

Results

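Cultured rice cells that had been without sucrose for 24 h were compared here with cells that had been without it for 48 h. The cells were Oryza sativa suspension cells in Murashige and Skoog medium from which sucrose had been left out, and each sample was 1 array on which their polyadenylated RNA, labelled with Cy5, was hybridised beside Cy3-labelled RNA of control cells kept for the same time in that medium with 3% sucrose. The 3 arrays at 48 h were paired with the 3 arrays at 24 h by the replicate number in their titles, so 6 of the 12 arrays of the study entered the comparison. Of the other 6 arrays, 3 compared 12 h of starvation with 3% sucrose and 3 compared it with 88 mM sorbitol. The labels give no cultivar and no tissue of origin for the suspension, and they do not say whether replicates were separate cultures, so p-values measure only how far these arrays differ, and that spread may be technical. Values are log2 ratios of starved over fed cells, a direction taken from the dye labels because the deposited table leaves the order of division of the channels unstated. It is the likely one, since the starvation-induced genes RAmy3D and RAmy3E had positive ratios. All arrays had the same dye orientation, so the dye bias of a probe drops out of a difference only if both arrays carried it equally. The difference of a pair is the 48 h ratio minus the 24 h ratio, and mean differences are given ± SD over the 3 pairs (n = 3). In all, 18428 of 21495 probes had a value on all 6 arrays. Of these, 15459 matched 1 gene, which gave 13915 genes, and 2068 probes of 1841 genes carried a gene name.

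Plant cells without sugar draw first on starch and then on protein and membrane lipid, while growth and division slow. In rice the alpha-amylase genes RAmy3D and RAmy3E are switched on by sugar loss, through the energy-sensing kinase SnRK1. Genes of sugar use, such as those for sucrose synthase and glycolytic enzymes, are commonly repressed, and genes for recycling, stress protection and defence are commonly induced. A comparison of the later with the earlier time asks how the RNA response develops as starvation is prolonged.

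The 3 pairs differed from each other more than they shared. The SD of the difference over probes was 0.50 in pair 1, 0.85 in pair 2 and 0.60 in pair 3. At least 2-fold differences were found for 392 probes higher and 523 lower at 48 h in pair 1, for 1947 and 1958 in pair 2, and for 754 and 768 in pair 3. Array 2 at 48 h had the widest spread of ratios of the 6 arrays (SD 1.26 over probes, against 0.68 to 1.04 on the others) and left 2927 probes blank, 13.6% of the table. Across the 18428 probes, which are not independent replicates and share an array within each pair, the differences of pairs 1 and 2 had Pearson's r = 0.160. Those of pairs 1 and 3 had r = 0.0523 and those of pairs 2 and 3 r = -0.0577.

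In all 3 pairs, 2521 probes were higher at 48 h (13.7% of the probes tested) and 2247 were lower (12.2%). The 6 patterns of mixed signs were about as frequent, each with 10.7% to 14.6% of the probes, so one direction in 3 pairs is by itself no sign that the pairs agreed. Counts of gene list members with one direction, given below, are to be read against the 13.7% and 12.2%. A difference of at least 0.5 in every pair was met by 168 probes higher (0.912%) and 199 lower (1.08%), and one of at least 1 by 8 higher (0.0434%) and 23 lower (0.125%). The probes next to the limit of 0.5 had weakest pair differences of 0.502 and 0.4996 on the higher side and -0.500 on the lower side. The 24 and 48 h arrays did not overlap, whatever their pairing, for 478 probes that were higher (2.59%) and 414 that were lower (2.25%). Among probes higher in all 3 pairs, 834 were already positive on every 24 h array, and among those lower in all 3 pairs, 765 were already negative on every 24 h array. Of all probes, 3879 (21.0%) were positive and 3869 (21.0%) negative on every 24 h array. Passing from negative on all 24 h arrays to positive on all 48 h arrays was seen for 41 probes (0.222%), and the reverse for 31 (0.168%).

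**Figure D1:**
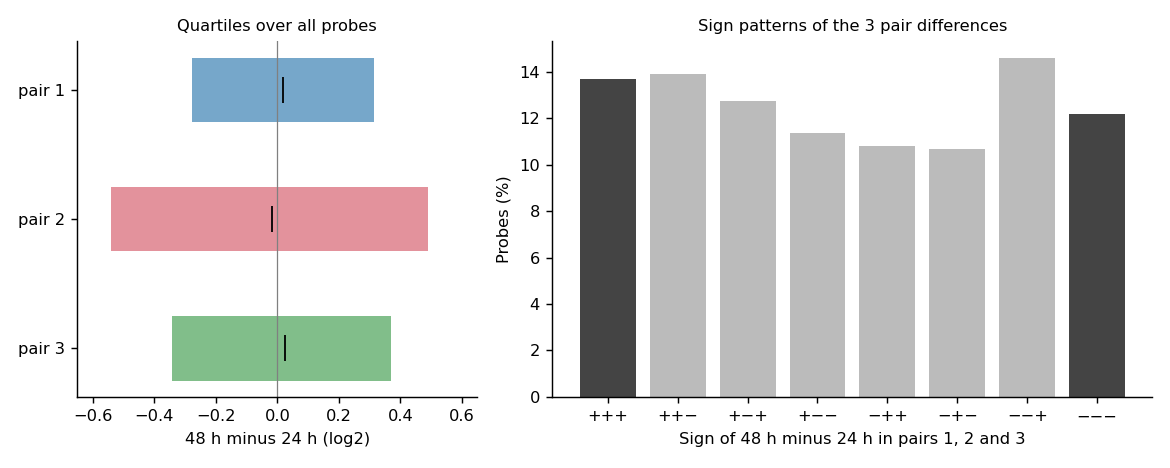
Left, the quartiles (bars) and median (black mark) of the log2 difference between 48 and 24 h over all probes in each pair of arrays. Right, the percent of probes with each pattern of signs in pairs 1, 2 and 3, where dark bars are the probes that were higher (13.7%) or lower (12.2%) in all 3 pairs, and no pattern holds more than 14.6%.

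No difference between 48 and 24 h passed the test. The fit with limma over all 12 arrays, adjusted by the Benjamini-Hochberg method over the 18428 probes, called 0 probes (0% in either direction) at an adjusted p of 0.05. An unadjusted p under 0.05 was reached by 540 probes (2.93%), and the lowest adjusted p was 0.741. When the replicate numbers, which were taken to pair the arrays, entered as a block by testing the 3 pair differences, limma called 1 probe, which was lower (0.00543%), and 1052 had an unadjusted p under 0.05. That probe is described with the genes that carry no name. A fit with the block over all 12 arrays called 0 probes. Adjusted p-values given below with the block are those of the pair differences. All other differences below are therefore given as measured values and not as established changes.

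Among the genes of sugar supply, the alpha-amylase genes had large ratios at both times. RAmy3E (LOC4345812), an alpha-amylase gene, had log2 ratios of 1.98, 4.67 and 3.06 on the 24 h arrays and 4.07, 4.79 and 5.47 on the 48 h arrays. It was higher in each pair, but by only 0.12 in pair 2 against 2.10 and 2.41 in the others, and its other probe gave differences of 1.89, 0.10 and 2.75. The alpha-amylase gene RAmy3D (LOC4345814) had 3.09, 3.99 and 4.90 at 24 h and 3.97, 4.02 and 6.65 at 48 h on one probe, again with next to no difference in pair 2 (0.03). On the other RAmy3D probe, all ratios lay between -0.12 and 0.91, and the sign differed between pairs. RAmy3A (LOC4347262), a further alpha-amylase gene, was 5.20 on the 48 h array 1 and 0.27 and 0.89 on the others, so its mean difference of 0.77 ± 1.25 rested on 1 array. In all, 3 of 8 probes of starch breakdown were higher in all 3 pairs and 1 was lower, with a median difference of 0.60 beside 0.01 over all probes. The lower one was DPE2 (LOC4344192), whose enzyme handles the maltose released from starch, with differences of -0.64, -0.39 and -0.53.

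Most sugar transporter probes, 9 of 12, had no common direction. SWEET1B (LOC4338851), a sugar transporter gene, had some of the highest ratios of the panel, 5.81, 6.01 and 4.29 at 24 h and 6.31, 6.68 and 2.55 at 48 h, so the difference was 0.50 and 0.67 in pairs 1 and 2 but -1.74 in pair 3. The monosaccharide transporter gene MST3 (LOC4342198) was higher in each pair, by 1.75, 0.19 and 0.68, from a mean of 3.59 to one of 4.47. SWEET14 (LOC4350572) was higher by 0.51 ± 0.14 and SWEET1A (LOC4324848) differed by -0.42 ± 0.26, both in the same direction in every pair with overlapping arrays. Of 12 sugar transporter probes, these 2 (MST3 and SWEET14) were higher and SWEET1A was lower in all 3 pairs, with a median of 0.12.

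Sucrose synthase SUS1 (LOC4333062), which cleaves sucrose in growing tissue, had ratios of -2.36, -2.49 and -1.85 at 24 h and -3.76, -2.94 and -3.23 at 48 h. It was lower in every pair, and no 48 h array reached the level of a 24 h array (2.11-fold, difference -1.08 ± 0.54). SUS3 (LOC4343910) was lower by nearly the same amount in each pair, -0.38 ± 0.01, from a mean of -0.36 at 24 h. Among 12 probes for sucrose cleavage and synthesis, 3 were lower and 1 higher in all 3 pairs, and their median of 0.04 turned to -0.02 and -0.05 under scale and quantile normalization.

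Hexokinase and fructokinase genes, whose enzymes add the phosphate that lets hexoses enter metabolism, gave 5 probes of 10 that were higher and 3 that were lower in all 3 pairs, with a median of 0.30. HXK4 (LOC4342654) had differences of 0.45, 1.72 and 0.57 and HXK5 (LOC4339361) of 0.37, 0.55 and 0.37. A different gene that also carries the name HXK4 (LOC4326776) was higher in each pair too (0.81, 0.08 and 0.05). A different gene that also carries the name HXK5 (LOC4324666) was lower in each (-0.06, -1.15 and -0.24). The fructokinase gene FRK1 was higher by 0.76 ± 0.37, although its ratios stayed negative on average, at -1.62 and -0.85. HXK6 (LOC4338010), with ratios of 2.89, 2.51 and 3.08 at 24 h and 3.09, 2.44 and 2.07 at 48 h, showed no common direction. Starch synthesis, the storage route, had 1 probe of 10 higher and 2 lower, with a median of -0.14. AGP1 (LOC4345858) was higher by 0.53 ± 0.38, and SSI2 (LOC4327738) differed by -0.61 ± 0.26 on one probe and -0.31 ± 0.34 on the other. These were all the probes of the list with one direction. Both genes entered the list by symbol alone, and whether they encode enzymes of starch synthesis was not checked. The counts of this list are therefore not read as a result about starch synthesis.

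Glycolysis had the lowest median difference of the 45 gene lists, -0.84 over 11 probes, but the pairs did not share it. The median was 0.02 in pair 1, -0.86 in pair 2 and -1.67 in pair 3. Only 2 of the probes were lower in all 3 pairs, and 1 was higher. FBA3 (LOC4325027), a gene for fructose-bisphosphate aldolase, had ratios of -0.84, -0.38 and -1.11 at 24 h and -1.89, -2.25 and -3.11 at 48 h. Every 48 h array lay below every 24 h array, a 3.11-fold difference (-1.64 ± 0.52, limma adjusted p = 0.999, 0.35 with the replicate block). The glyceraldehyde-3-phosphate dehydrogenase gene GAPC (LOC4344564) disagreed with itself, since one probe had differences of -0.05, -1.58 and -1.87 and the other 0.02, 0.48 and 0.76. GAPC2 (LOC4336216) had strongly negative ratios at both times, -3.15, -2.71 and -1.86 and then -2.79, -3.57 and -3.02, and was lower in pairs 2 and 3 only. The enolase gene Eno1 (0.20, -1.91 and -2.47) and the triosephosphate isomerase gene TPI (0.75, -1.60 and -2.19) likewise had a negative difference in those pairs and a positive one in pair 1.

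The pyruvate decarboxylase genes of fermentation were lower in every pair. PDC1 (LOC4339066) encodes this enzyme, the entry step of ethanol fermentation. Its ratios were -2.14, -2.02 and -3.36 at 24 h and -4.05, -3.30 and -5.55 at 48 h. The difference was -1.80 ± 0.47, 3.47-fold, although array 2 at 48 h did not lie below array 3 at 24 h (limma adjusted p = 0.999, 0.273 with the block). PDC2 (LOC4332519), for the same enzyme, had -1.89, -1.84 and -2.00 at 24 h and -2.32, -2.47 and -3.32 at 48 h, without overlap. The alcohol dehydrogenase gene Adh2 showed no common direction (-0.15 ± 0.21), so 2 of the 3 fermentation probes were lower in all pairs, with a median of -0.79.

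Lists of respiration and of carbon recovery had medians nearer to 0 than that of fermentation, from -0.44 to -0.15, but the pairs did not always share them. Succinate dehydrogenase, the citric acid cycle enzyme that feeds the respiratory chain, had 4 of 9 probes lower and 0 higher in all 3 pairs, with a median of -0.24. The differences were small, such as -0.24 ± 0.09 for SDH3-2 and -0.16 ± 0.13 for SDH1. Leucine breakdown and the electron transfer flavoprotein, which pass electrons from amino acids to respiration, had 0 of 7 probes with a common direction. Their levels stayed positive, with medians over probes of 1.64 at 24 h and 1.57 at 48 h. PPDK2 (LOC4333181), a gene for pyruvate orthophosphate dikinase, which makes phosphoenolpyruvate from pyruvate, was lower by -1.11, -0.64 and -1.55 in the 3 pairs. It was the 1 probe of 3 in its list, which also held isocitrate lyase, with a common direction. The list median was -0.44, with 0.87, 0.27 and -1.55 in the pairs. The isocitrate lyase gene ICL had differences of 1.52, 1.19 and -0.13. PPDKB, a further gene for the dikinase, had 0.87, 0.27 and -2.46.

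Nitrogen assimilation had 1 probe of 11 higher and 0 lower, with a median of 0.10. The higher one was on GDH2 (LOC4336554), a gene for glutamate dehydrogenase, which releases ammonium from glutamate. Its ratios were 0.95, -0.07 and 0.71 at 24 h and 1.68, 1.48 and 0.96 at 48 h, without overlap. The other GDH2 probe had larger ratios, from 2.82 to 3.42 at 24 h, and differences of 1.49, 0.78 and -0.52.

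The largest negative differences among named genes, ranked by the weakest pair, were those of RASI, SPX3 and PDC1. RASI (LOC4336455), which encodes an inhibitor of alpha-amylase and subtilisin, had ratios of -0.10, 1.22 and -0.21 at 24 h and -1.92, -1.53 and -1.54 at 48 h. All 48 h arrays lay below all 24 h arrays, and the mean difference of -1.97 ± 0.72 was 3.91-fold (limma adjusted p = 0.823, 0.273 with the block). On the 12 h arrays against sucrose its mean ratio was -0.46 ± 0.60.

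Genes with an SPX domain, which senses phosphate status through inositol pyrophosphates and restrains the phosphate starvation regulator, stood next. SPX3 (LOC4348535) had ratios of -0.89, 0.44 and -0.60 at 24 h and -3.18, -3.05 and -1.91 at 48 h. The groups did not overlap, and the difference was -2.36 ± 1.09, 5.15-fold (limma adjusted p = 0.741, 0.273 with the block). SPX2 (LOC4328654) had -1.82, 0.34 and -2.50 at 24 h and -2.78, -2.66 and -3.46 at 48 h, also without overlap, with the largest difference in pair 2 (-3.01 against -0.96 and -0.97). SPX1 (-1.09, -1.46 and -0.37) and SPX5 (-0.69, -1.83 and -0.87) had the same sign throughout, as did 1 of the 2 probes of SPX4, by -0.32 ± 0.34. Of the 6 SPX probes 5 were lower in all 3 pairs and 0 higher, with a median of -1.05. This family was picked out after its values were seen. At 12 h, SPX3 and SPX2 had mean ratios against sucrose of 0.07 ± 0.43 and 0.06 ± 0.53.

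**Figure D2:**
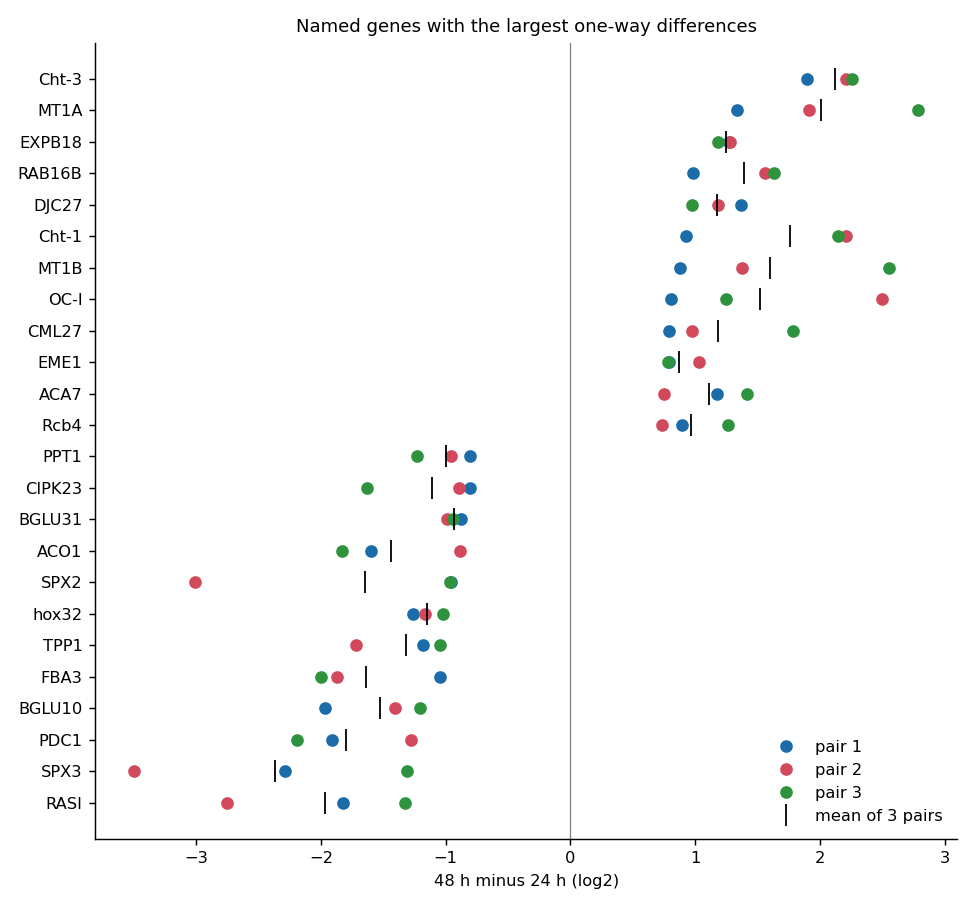
Log2 difference between 48 and 24 h in each of the 3 pairs (points) and their mean (black mark) for the 12 named genes with the largest differences above 0 and the 12 below 0, ranked by their weakest pair. Cht-3 lies between 1.90 and 2.26 in the 3 pairs, and SPX3 between -3.50 and -1.31.

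The remaining genes of that ranking had weakest differences of -0.80 to -1.20. BGLU10 (LOC4336142), from the beta-glucosidase family, had ratios of -0.15, -1.60 and 0.58 at 24 h and -2.12, -3.01 and -0.63 at 48 h on one probe, with overlap. Its other 3 probes had no common direction, and in the whole beta-glucosidase family 5 of 25 probes were higher and 4 lower, with a median of 0.04, so that family had none either. BGLU31 (LOC4347545) was lower by 0.88 to 0.99 (-0.88, -0.99 and -0.94) on one probe, without overlap, and had mixed signs on the other. TPP1 (LOC4330221), for a phosphatase that makes trehalose from trehalose 6-phosphate, a sugar signal in plants, had ratios of -1.42, 0.34 and -0.68 at 24 h and -2.60, -1.38 and -1.73 at 48 h. The homeodomain leucine zipper gene hox32 (LOC4333544) was lower by a similar amount in each pair (-1.26, -1.17 and -1.02), without overlap. PPT1 (LOC4346653) differed by -0.80, -0.95 and -1.23, also without overlap.

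Across all 24 genes of the ranking, 9 of the 12 with negative differences had 24 and 48 h arrays that did not overlap, against 3 of the 12 with positive ones. The non-overlap was 2.25% and 2.59% of all probes, but the ranking used the same arrays, so nothing is read from that count. The adjusted p of limma with the replicate block ran from 0.107 to 0.827 over the 24.

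Among named genes ranked by the weakest pair, the chitinase gene Cht-3 and the metallothionein gene MT1A had the largest positive differences. Cht-3 (LOC4342114) encodes an enzyme of defence that cuts fungal cell wall chitin. It had ratios of 2.84, 4.86 and 2.35 at 24 h and 4.73, 7.06 and 4.61 at 48 h. Array 2 was the highest at each time and the groups overlapped, yet the difference was nearly equal in the 3 pairs (1.90, 2.20 and 2.26, a mean of 2.12 ± 0.19, 4.35-fold). The limma adjusted p was 0.999 without the block and 0.107 with it. Cht-1 (LOC4342115), also a chitinase gene, had 1.47, 2.85 and 2.22 and then 2.39, 5.06 and 4.36 (1.76 ± 0.72). Rcb4 (LOC4348631), a further chitinase gene, was higher by 0.89, 0.73 and 1.26, and Chib3H-h by 0.80, 1.60 and 0.65. These 4 of 10 chitinase probes were higher in all 3 pairs and 0 were lower, with a list median of 0.13. The remaining 6 had no common direction, and whether probes of related genes share targets was not tested.

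Metallothioneins are small cysteine-rich proteins that bind metals. MT1A (LOC4351213) had ratios of 0.25, 1.24 and 0.46 at 24 h and 1.58, 3.15 and 3.25 at 48 h, without overlap (2.01 ± 0.73, 4.03-fold, limma adjusted p = 0.999, 0.273 with the block). MT1B (LOC4332487) had 2.59, 5.33 and 1.72 and then 3.47, 6.71 and 4.27, with array 2 highest at both times. MT21A was higher by 0.22, 0.29 and 1.78, and MT2C by 0.28, 1.91 and 1.68 on 1 of its 2 probes. Of 8 probes 4 were higher in all pairs and 0 lower, with a median of 0.47, and in each of these 4 pair 3 or pair 2 had the largest difference.

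Cystatins inhibit cysteine proteases, the class that degrades protein in the vacuole. OC-I (LOC4327535), oryzacystatin, had ratios of 1.09, 1.91 and 1.00 at 24 h and 1.90, 4.41 and 2.24 at 48 h, and its array 1 at 48 h lay just below array 2 at 24 h. OC-XII was higher by 0.88, 0.11 and 0.90, and OC-II (LOC4339190) by 0.34, 0.90 and 0.35. These 3 of 6 probes were higher and 0 lower, with a median of 0.47.

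RAB16B (LOC4350453) encodes a dehydrin, a protective protein of drying seeds and of tissue exposed to abscisic acid. Its arrays were the closest of the panel at 24 h, with ratios of 3.38, 3.37 and 3.27, and it had 4.36, 4.93 and 4.90 at 48 h. No array overlapped, and the difference of 1.39 ± 0.36 was 2.63-fold (limma adjusted p = 0.966, 0.533 with the block). RAB16C, from the same family, was near 0 at both times (0.01 and 0.19). The other dehydrins and late embryogenesis genes Emp1, Dhn1 and rab25 had a negative difference in pair 1 (-0.98, -0.83 and -0.92) and positive ones in pairs 2 and 3. The 6 probes of the list thus had medians of -0.53, 1.32 and 0.66 in the 3 pairs, with 2 higher throughout.

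**Figure D3:**
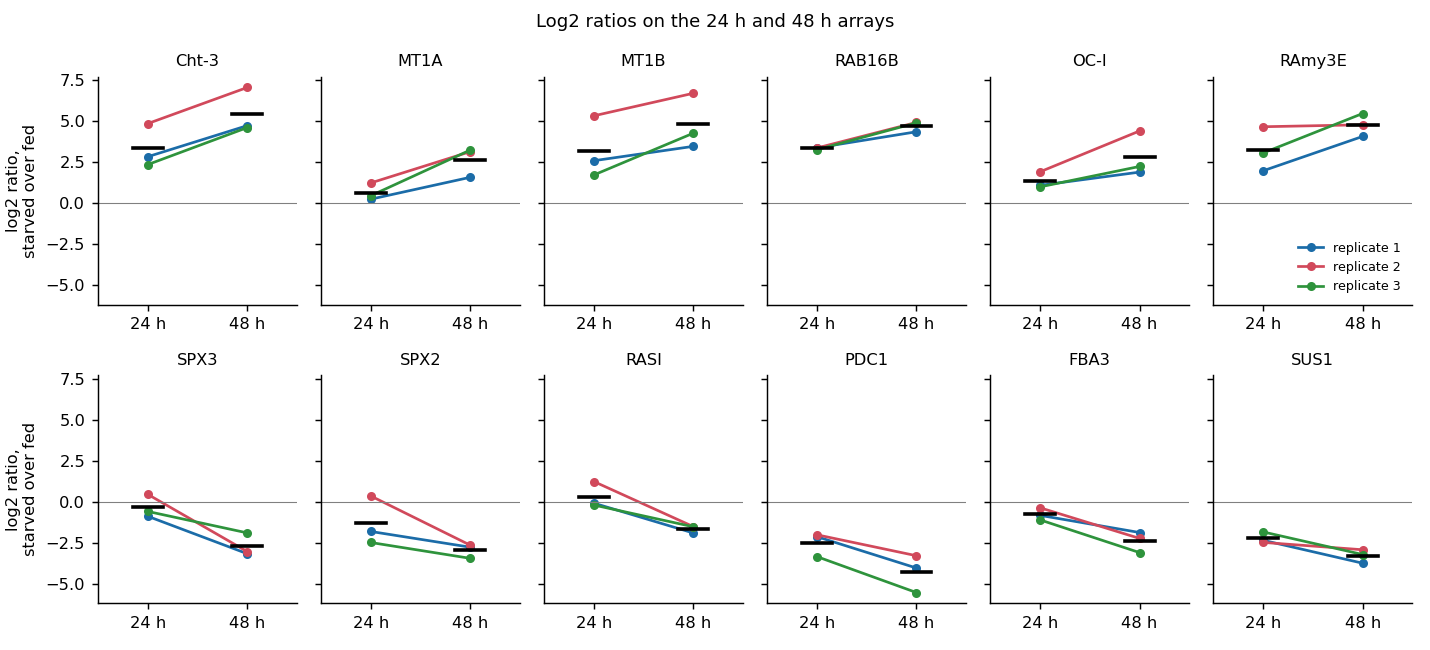
Log2 ratio of starved over fed cells on each array at 24 and 48 h for 12 genes, with arrays of one replicate number joined and black bars for the mean of 3 arrays. In the upper row every line ends higher, from 4.61 to 7.06 at 48 h for Cht-3, and in the lower row every line ends lower, from -5.55 to -3.30 for PDC1.

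The other named genes with large positive differences were of mixed function. EXPB18 (LOC4338206), a beta-expansin, a wall-loosening protein, was higher by nearly the same amount in each pair (1.27, 1.28 and 1.18), while its ratios ranged from -2.45 to 0.51 at 24 h and from -1.26 to 1.79 at 48 h. DJC27 (LOC4332515), also named ERdj3A, a J-domain partner of a chaperone, had differences of 1.36, 1.18 and 0.97. EME1 (LOC4337213), named for an endonuclease subunit of DNA repair in yeast, went from ratios of 0.16, -0.28 and 0.04 to 0.95, 0.75 and 0.82, without overlap. ACA7 (LOC4348639), a calcium pump, was higher by 1.18, 0.75 and 1.41.

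Calcium-linked kinases and sensors, which read calcium signals, had 16 of 61 probes higher and 4 lower in all 3 pairs and a median of 0.19. CML27 (LOC4332731), a calmodulin-like calcium sensor, had ratios of 1.89, 4.04 and 0.89 at 24 h and 2.68, 5.01 and 2.67 at 48 h. The kinase gene CIPK10 was higher by 1.94, 1.30 and 0.73, from a mean of -0.29 to one of 1.03. CIPK23 (LOC4342410), whose kinase acts on a root potassium channel, was lower by -0.81, -0.90 and -1.63 on one probe, without overlap, and mixed on the other.

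Hormone-linked genes included several with a positive difference. JAZ proteins repress jasmonate responses, and their genes are themselves induced by jasmonate. JAZ11 (LOC4331833) was higher by 1.34, 1.14 and 0.63, JAZ9 by 0.88, 1.53 and 0.48, and JAZ8 by 1.33, 0.25 and 0.36. JAZ3 (LOC4345625) had ratios of -1.46, -0.07 and -0.04 at 24 h and 0.05, 0.98 and 0.46 at 48 h, negative on every earlier array and positive on every later one, while its other probe differed by 0.19 ± 0.25. In all 5 of 13 JAZ probes were higher and 0 lower, with a median of 0.18.

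In ethylene synthesis and signalling 3 of 10 probes were higher and 1 lower, with a median of 0.28. The lower one was ACO1 (LOC4347225), for the oxidase that forms ethylene, with ratios of -0.57, -1.29 and 0.03 at 24 h and -2.17, -2.17 and -1.80 at 48 h, without overlap (2.71-fold). EIL1 (LOC107276358), a transcription factor of ethylene responses, was higher by 0.46 ± 0.07. Among SAPK kinases and abscisic acid genes 3 of 15 probes were higher and 2 lower, with a median of 0.19, and the abscisic acid linked kinase gene SAPK4 (LOC4324934) was lower on both probes (-0.86 ± 0.46 and -0.21 ± 0.08). Protein phosphatases 2C, some of which switch abscisic acid signalling off, had 14 of 51 probes higher and 8 lower, with a median of 0.10, OsPP2C12 at 0.54 ± 0.17 on 1 of its 2 probes and OsPP2C05 at -0.92 ± 0.71. SnRK1A (LOC4339410), the catalytic subunit of the energy-sensing kinase, had differences of -0.10, -0.31 and -0.98. It was the 1 probe of 5 for SnRK1 with a common direction, and the list median of -0.47 held -1.11 in pair 3 against 0.23 and 0.04 in the others.

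Transcription factors of the bZIP class, which include partners in sugar and abscisic acid responses, had 6 of 12 probes higher in all 3 pairs and 0 lower. Their median was 0.48, with 0.30, 0.69 and 0.39 in the pairs. ABF2 (LOC4330838), an abscisic acid responsive factor, had ratios of 0.86, 1.87 and 0.71 at 24 h and 1.23, 2.87 and 1.99 at 48 h. BZIP06 (LOC4325139) went from -0.03, -0.27 and 0.01 to 0.21, 0.29 and 0.49, without overlap. Of WRKY and NAC factors 3 of 13 probes were higher and 1 lower, with a median of 0.12, and NAC6 (LOC4325006) and NAC8 (LOC4325120) were higher by 1.06 ± 0.47 and 0.78 ± 0.05. The other NAC6 probe had differences of -0.25, -1.12 and 0.35. Heat shock factors had 4 of 17 higher and 2 lower with a median of 0.14, HSF23 at 0.57 ± 0.13 and HSF07 at 0.58 ± 0.13. MYB factors had 1 of 6 higher (MYB45, 0.58 ± 0.45) and DREB factors 0 of 4 in either direction, with medians of 0.14 and 0.18. Heat shock proteins had 1 of 11 higher, CLPD1 at 0.55 ± 0.32, and a median of 0.25.

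**Figure D4:**
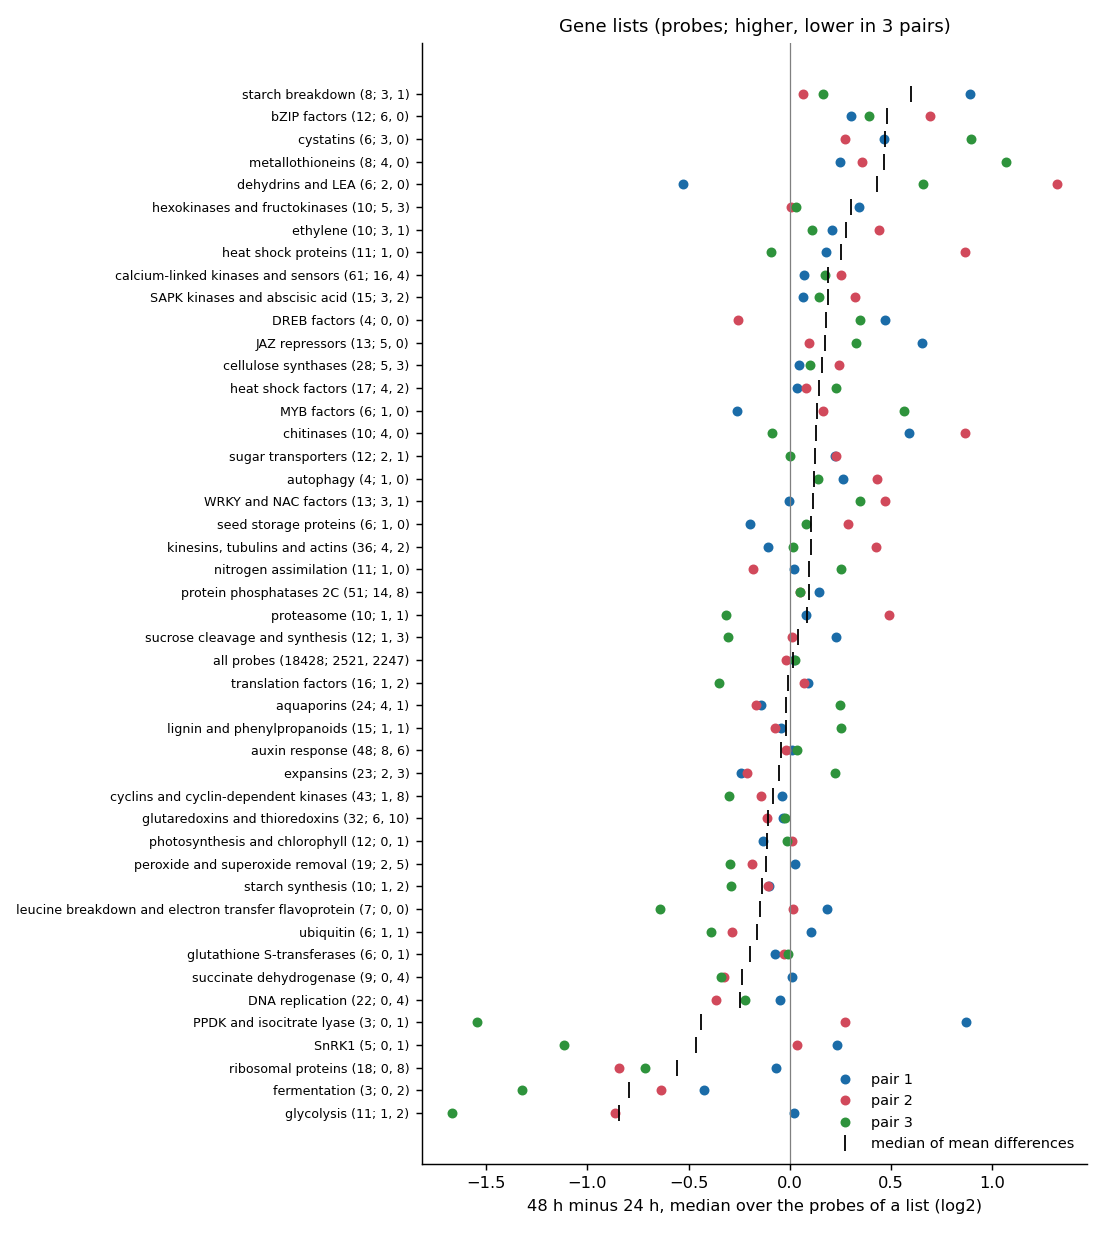
Median log2 difference between 48 and 24 h over the probes of each gene list, in each pair (points) and for the mean of the pairs (black mark). Figures in brackets give the probes of the list and how many were higher and lower in all 3 pairs, and glycolysis spans medians from -1.67 to 0.02 while bZIP factors stay between 0.30 and 0.69.

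The lists of ribosomal proteins, translation factors, DNA replication and cyclins with their kinases had negative median ratios at 24 h, from -0.62 to -0.20. In all 3 pairs 44.4% of the ribosomal protein probes were lower, beside 12.2% of all probes, while the other lists lay nearer to that share (12.5%, 18.2% and 18.6%). Ribosomal proteins had 8 of 18 probes lower and 0 higher, with a median of -0.56. The median was near 0 in pair 1 (-0.07) and further below it in pairs 2 and 3 (-0.84 and -0.72). RPL5 (LOC4325100) had ratios of -1.46, -1.63 and -0.68 at 24 h and -2.12, -2.36 and -1.37 at 48 h, a like difference in each pair (-0.69 ± 0.03). RPL30 (LOC4324441) was lower by -0.34, -1.15 and -0.81. Translation factors had 1 of 16 probes higher and 2 lower, with a median of -0.01, and included the initiation factor genes eIF-4A-1 (LOC4341966, -0.52 ± 0.28) and eIF-4G (LOC4343565, 1.20 ± 1.62), the latter with 1 of its 5 probes of a common sign.

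DNA replication genes had 4 of 22 probes lower and 0 higher, with a median of -0.25. ORC1 (LOC4340349), a subunit of the origin recognition complex, had ratios of -0.83, -1.69 and -0.79 at 24 h and -1.64, -2.47 and -1.07 at 48 h on one probe and no common direction on the other. RPA70C (LOC4337594), of the protein that coats single-stranded DNA, differed by -0.23 ± 0.15. PCNA (LOC4331062), the sliding clamp of DNA polymerase, was negative on all arrays and nearly level, with -1.56, -1.84 and -0.75 and then -1.48, -2.04 and -1.15. Cyclins and cyclin-dependent kinases had 8 of 43 probes lower and 1 higher, with a median of -0.08. Those lower included the mitotic cyclin genes CYCB1-1 (-1.78, -1.17 and -0.19) and CycB2;2 (LOC4342121, -1.43, -0.70 and -0.70), the G1 cyclin gene CYCD4-2 (LOC4345844, -0.77, -0.75 and -0.67) and the mitotic kinase gene CDKB2-1 (-0.80, -0.75 and -0.67).

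Cytoskeleton and wall genes were more evenly split. Kinesins, tubulins and actins had 4 of 36 probes higher and 2 lower (median 0.10), with TUB1 (LOC4326917), a tubulin, at -0.84 ± 0.10 on one probe and mixed on the other, and the kinesin gene KIN7F (LOC4336528) at 0.57 ± 0.26. Expansins had 2 of 23 higher and 3 lower, with a median of -0.05 that became 0.00 and 0.01 under scale and quantile normalization, and EXPA4 (LOC4339106) went from 0.24, -0.05 and -0.47 to -1.15, -1.04 and -0.83 on one probe, while its other probe had differences of 0.48, 0.75 and -0.11. Cellulose synthases and related genes had 5 of 28 higher and 3 lower (median 0.16), with CESA2 at 1.03 ± 0.65 and CSLD1 at -0.48 ± 0.18 on one probe each. The other probe of each had mixed signs, with means of -0.03 and -0.09. Auxin response genes had 8 of 48 higher and 6 lower, with a median of -0.04 that became 0.02 and 0.01 under those normalizations, IAA24 at 0.61 ± 0.34 and ARF3 at -0.96 ± 0.40. Lignin and phenylpropanoid genes had 1 of 15 in each direction, with a median of -0.02 that became 0.01 and 0.09, CAD1 at 0.69 ± 0.55 and CAD7 at -0.39 ± 0.35. Aquaporins, the water channels, had 4 of 24 higher and 1 lower (median -0.02), led by TIP4-1 (LOC4338163), higher by 1.37 ± 0.74, and TIP2-2 (0.50 ± 0.19).

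Among redox and protein breakdown genes, probes with one direction were found on each side. For the proteasome (10% on each side) and ubiquitin (16.7% on each side) their shares were near those over all probes. Enzymes that remove peroxide and superoxide had 2 of 19 probes higher and 5 lower (median -0.12). Among them APX1 (LOC4332474) and APX2 (LOC4344397), genes for ascorbate peroxidases, had opposite signs on one probe each. APX1 went from 0.41, 2.33 and 1.44 to -0.25, 0.38 and 0.37, without overlap, and APX2 from 0.03, 0.97 and 0.03 to 0.73, 2.30 and 0.47, but the other APX2 probe had differences of 0.39, 0.63 and -0.63. Glutaredoxins and thioredoxins had 6 of 32 higher and 10 lower (median -0.11), with GRXS2 at -0.53 ± 0.06 and -0.76 ± 0.53 on its probes and OsTrx18 at 0.48 ± 0.13. Glutathione S-transferases had 1 of 6 lower (GSTU6, -0.30 ± 0.25 on 1 of its 3 probes) and a median of -0.20. The proteasome had 1 of 10 in each direction (OsRPN5 at 0.38 ± 0.32, RPN7 at -0.67 ± 0.49, median 0.09). Ubiquitin had 1 of 6 in each, both of them probes of UBQ2 (LOC4347896, -0.82 ± 0.57 and 0.30 ± 0.42), with a median of -0.16. Autophagy, the bulk recycling route, had 1 of 4 higher, ATG5 (LOC4328092), which went from -0.16, -0.21 and -0.15 to 0.14, 0.14 and 0.25, and a median of 0.12.

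Markers of other cell types had medians near 0. Seed storage proteins had 1 of 6 probes higher (RAG2, 0.25 ± 0.04) and a median of 0.10, and photosynthesis and chlorophyll genes 1 of 12 lower (CHLD, -0.52 ± 0.06) and a median of -0.11. Ratios of starved over fed cells do not give levels, so the labelled cell type could not be checked by the presence or absence of its markers. In a bulk sample fewer cells of a type and less RNA per cell cannot be told apart.

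Of the probes past 1 in every pair, 5 of 8 higher and 16 of 23 lower had no gene name, as had 88.8% of all probes. LOC4329468 was the probe called with the replicate block. Its ratios were 2.38, 4.64 and 2.04 at 24 h and -0.31, 1.14 and -0.53 at 48 h, well above 0 on every array at the earlier time and nearer to it on every array at the later one. The difference was -2.92 ± 0.51, 7.56-fold lower (limma adjusted p = 0.999, 0.0417 with the block on pair differences). With the block fitted over all arrays, the limma adjusted p of this probe was 0.99987. Testing pair differences without replicate 1 called 0 probes, without replicate 2 128 and without replicate 3 2. On the 12 h arrays it had 4.70, 3.21 and 3.11 against sucrose and 0.59, 0.60 and 0.51 against sorbitol. LOC4336202 had 24 h ratios of -0.53, -0.37 and -0.36 and 48 h ratios of -1.85, -3.08 and -2.70 and shared the lowest limma adjusted p without the block, 0.741. In the other direction LOC4352127 went from 2.13, 2.64 and 1.97 to 3.71, 4.65 and 3.83, without overlap, and LOC4334015 from 1.66, 4.96 and 3.85 to 3.67, 6.30 and 5.25.

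The 12 h arrays, which did not choose the probes, gave levels for them at an earlier time. Probes higher at 48 than at 24 h in all 3 pairs had a median log2 ratio of 0.22 at 12 h against sucrose, and 69.4% were positive, beside 50.9% of all probes. Probes lower in all 3 pairs had a median of -0.18, and 64.1% were negative, beside 49.1% of all. Those past 0.5 in each pair had 12 h medians of 0.55 and -0.44. Against sorbitol the medians were 0.08 and -0.09 for the probes higher and lower in all 3 pairs. The 12 h medians against sucrose were 0.087 and -0.016 under scale normalization and 0.10 and -0.033 under quantile normalization, each recomputed with the probes that had one direction on those values. The part that the unequal spread of ratios between arrays had in these medians was not tested.

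**Figure D5:**
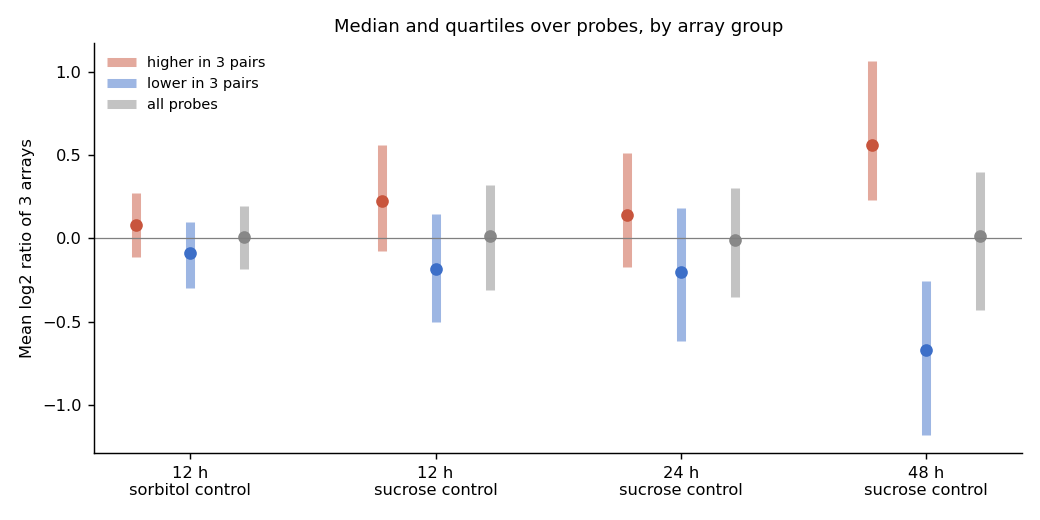
Median (points) and quartiles (bars) over probes of the mean log2 ratio of the 3 arrays of each group, for the 2521 probes higher at 48 than at 24 h in all 3 pairs, the 2247 lower, and all 18428. Only the 12 h groups were not used to choose the probes, and there the medians are 0.22 and -0.18 against sucrose and 0.08 and -0.09 against sorbitol.

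A further view used one pair as a check on the others. Of 127 probes lower by at least 1 in both pairs 2 and 3, 74.0% were also lower in pair 1, beside 48.3% of all probes. For the 67 probes higher by at least 1 in these pairs the share in pair 1 was 62.7% beside 51.7%. With pair 2 left out, 53.2% of 47 probes higher and 61.8% of 68 lower in pairs 1 and 3 kept the direction in pair 2 (49.1% and 50.9% of all). With pair 3 left out, 61.5% of 96 higher and 54.3% of 129 lower kept it (51.9% and 48.1% of all). Under scale normalization the share for probes higher lay below that of all probes with pair 1 or pair 2 left out, at 37.5% of 24 and 33.3% of 30 probes.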

How the data were processed

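Ratios of 2 channels were measured on 12 arrays in 4 groups of 3, and 6 of them entered the comparison. The authors deposited 1 table of processed values, taken here from the values themselves as natural log ratios and turned to log2. For 5 columns too few ratios of a single decimal were found to settle the scale, and they were taken to share that of the others. Background correction, normalization, software and the cause of blank cells are not given in the sources used here. Signal over background is unknown for every probe, and the number of arrays limits the precision.

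Probes were named through GEO's annotation for the array (1 gene for 17839 probes, several for 21, none for 3635) and a RefSeq gene table of assembly ASM3414082v1, in which 100% of gene IDs were found. No coordinates or sequences were used. Nothing was filled in for blanks, and 3067 probes with a blank on any of the 6 arrays were left out.

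The test, two-sided, used lmFit and eBayes of limma 3.58.1 (R 4.3.3) with a mean for every group over all 12 arrays, with Benjamini-Hochberg adjustment over probes. Deviations from the group mean correlated by 0.562, 0.423 and 0.490 across probes between 24 and 48 h arrays of the same number and by -0.418 to -0.103 between different numbers. Deviations within a group sum to 0, so the negative values follow from the positive ones and are no separate support. The numbers were taken to pair the arrays, though the labels do not say what a number shares. A test on the 3 pair differences gives the replicate block. On simulated data for the 18428 probes of this comparison, the fit without the block recovered 98% of 200 probes altered by 3 on the log2 scale and the blocked fit 100%, with 13 and 10 false calls among the other probes. Smaller alterations were not simulated, so the recovery says nothing about differences of the size described here. The simulated noise held no effect shared by arrays of the same number. Tables and figures used Python 3.11.15, pandas 2.3.3, numpy 2.4.6, scipy 1.17.1 and matplotlib 3.10.9.

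Named genes were, among named probes with 1 direction in all 3 pairs, the 12 largest differences on each side by the weakest pair, 2 genes of each of the 45 lists, and a panel of 14 sugar starvation genes whatever their values. Other list members and the SPX family were named after their values were seen. The lists matched gene symbols, and they, the members and the tests were chosen with earlier results of these data known. Alternatives were other normalizations, sets of arrays, probes and settings of limma, and leaving out each array or pair.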

Additional observations from a re-analysis of the deposited data

Results flagged for a closer look

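JAZ3 (LOC4345625) and ATG5 (LOC4328092) were singled out because their ratios had one sign on all 3 arrays at 24 h and the opposite sign on all 3 at 48 h. The mean difference was 1.02 for JAZ3, with ratios of -1.46, -0.07 and -0.04 before and 0.05, 0.98 and 0.46 after, of which several lie close to 0. It was 0.35 for ATG5, whose ratios lay between -0.21 and 0.25 on all 6 arrays. Neither difference passed limma (adjusted p = 0.999 for each). LOC4329468 stood out because it was the probe called on the 3 pair differences, with a mean of -2.92. Its ratios against sucrose at 12 and 24 h were all above 2, and at 48 h 2 of 3 were below 0.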

How the results depend on the processing

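No fit without the replicate block called a probe, whether on the 6 arrays alone, without the sorbitol arrays, with probes of a gene averaged, with other normalizations, weights or variance settings, or with an array or pair left out. On pair differences 1 probe was called, also after median centring, scale or quantile normalization, while leaving out a pair gave from 0 to 128. The block fitted over all arrays called 0. The 128 calls without replicate 2 came from a fit with infinite prior degrees of freedom. With all 3 pairs kept, the block changed no other call.

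Probes with one direction in all 3 pairs numbered 2521 higher and 2247 lower. With a difference of at least 0.5 the numbers were 168 and 199, with at least 1 they were 8 and 23, without overlap of the groups 478 and 414, and with both 0.5 and no overlap, chosen after seeing the data, 35 and 87. Leaving out 1 pair and asking for one direction in the other 2 gave 4515 to 5085 higher and 4214 to 4936 lower. The 12 h medians became 0.087 (scale) for probes higher and -0.016 (scale) and -0.033 (quantile) for probes lower. For the pair left out, scale normalization gave 37.5% (pair 1, higher), 33.3% (pair 2, higher) and 77.4% (pair 3, lower), and quantile normalization 32.0% (pair 2, higher) and 77.8% (pair 3, lower). These checks were chosen after seeing the data.

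Of 103 named probes under 14 alternatives each, 16 reversed in 29 of 1442 values, and none of the 24 largest did. Leaving out arrays or pairs gave ranges of -1.05 to 0.082 for CAD7, -1.13 to 0.041 for GRXS2, -0.21 to 1.40 for HSF23, -0.57 to 0.064 for HXK6, -0.32 to 1.19 for OC-II, -0.40 to 0.14 for PCNA, -0.038 to 0.51 for RAG2, -0.77 to 1.69 for RAmy3A, -0.00047 to 1.34 and -0.24 to 0.39 for the RAmy3D probes, -0.38 to 0.011 for RPA70C, -0.61 to 0.21 for the other SAPK4 probe, -0.48 to 0.22 for SDH1, -0.94 to 1.13 for SWEET1B and -0.33 to 1.39 for TIP2-2. Scale normalization turned CAD7 to 0.0084, PCNA to 0.025 and TIP2-2 to -0.040, and quantile normalization CAD7 to 0.31, GAPC2 to 0.082, PCNA to 0.073 and RAmy3D to -0.078. Of the 45 list medians 16 changed sign under at least 1 alternative, over 315 values. The cause was not tested.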
